A study of Rattus norvegicus with 40 samples.

Results

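The integrated stress response and serine synthesis were followed through 10 genes in rat retina. These were the transcription factors Atf4, Ddit3 and Atf3, the stress-response effectors Trib3, Asns, Chac1 and Sesn2, and the serine and one-carbon enzymes Psat1, Phgdh and Shmt2. They were chosen by gene symbol, and each symbol matched 1 of the 32883 rows of the count table. All 10 were among the 14914 genes with a mean count of at least 10 per library, so none was lost to the filter on low counts.

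The study measured RNA from single whole retinas of wild-type rat pups. At postnatal day 15 there were 4 retinas each from pups with oxygen-induced retinopathy (OIR) and anemia, OIR alone, room air with anemia, and room air alone, and at postnatal day 20 there were 8, 8, 4 and 4. OIR was produced by the Penn 50/10 protocol, in which oxygen swings between high and low levels, and anemia by drawing blood from the facial vein to a hematocrit of 18%. Pups that were not made anemic had a skin prick at the neck instead, and the series description gives each group as equal numbers of males and females. The 40 count columns carry codes, and 0 of them could be tied to a single sample by name. No anemic group is therefore set against a non-anemic one, and no OIR group against room air. What follows describes the level of each gene in the 40 libraries, by the block that a library's code number falls in once its last 2 digits are dropped, and how the genes moved together from library to library inside these blocks. Blocks 1 to 6 held 4 libraries each and blocks 9 and 10 held 8 each, and no block carries a group label.

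ATF4 is a transcription factor whose translation increases when the initiation factor eIF2 is phosphorylated, as happens on amino acid shortage, unfolded protein in the endoplasmic reticulum, heme shortage or mitochondrial stress. It then switches on genes for amino acid synthesis, amino acid import and the charging of tRNA, together with CHOP (encoded by Ddit3) and other factors that shape or end the response. Serine is made from a glycolytic intermediate by PHGDH, PSAT1 and PSPH, and SHMT2 passes its carbon into the mitochondrial folate cycle. In the retina the serine enzymes are known mainly from Müller glia, and ATF4 controls their genes in several cell types.

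ATF4 and its C/EBP partners are known to bind a composite element whose core is TGATGCAA. That core, or its reverse complement TTGCATCA, was searched on both strands of the RefSeq promoter windows of assembly GRCr8, which run from 250 bases before the annotated start to 50 bases after it. Of the 10 genes, 9 had a window and Atf3 had none. Chac1 was the member whose window held the core, 167 bases before its start. The 250 bases before that start, at the upstream end of the window chr3:126795881-126796180 on the plus strand, are shown 5′ to 3′ on the gene's strand with the match in capitals.

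Chac1: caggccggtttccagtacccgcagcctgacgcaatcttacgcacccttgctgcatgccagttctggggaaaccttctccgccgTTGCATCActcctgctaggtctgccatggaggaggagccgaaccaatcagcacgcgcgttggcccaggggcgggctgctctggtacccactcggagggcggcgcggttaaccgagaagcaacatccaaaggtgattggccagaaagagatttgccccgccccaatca

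A looser form, TGATGNAA, which contains the first, added Trib3, whose match began 21 bases before its start in the window chr3:161275484-161275783 on the minus strand. It is shown with 11 bases on either side.

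Trib3: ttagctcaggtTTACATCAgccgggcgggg

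The core stood in the windows of 0.823% of 27456 RefSeq genes and of 0.573% of the 10997 detected genes that had a window. The looser form stood in 4.15% and 2.10% of them. A match is a description of these letters and not evidence of binding. Among the genes that tracked Chac1 and Asns most closely, described further down, were 6 aminoacyl-tRNA synthetases whose windows carried the core; these enzymes attach amino acids to tRNA. The matches are shown in the same way, 30 bases per gene, with the window of each in the order of the lines. The windows are chr1:208225320-208225619 (minus strand), chr17:15193603-15193902 (minus), chr7:65023704-65024003 (minus), chr18:60275733-60276032 (minus) and chr2:62114753-62115052 (minus). The match of Yars began 38 bases after its start in chr5:146819913-146820212 (plus strand), so its line ends with the window.

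Cars: cggcgccgcggTTGCATCAgattctggaaa
Iars: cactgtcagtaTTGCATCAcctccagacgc
Mars: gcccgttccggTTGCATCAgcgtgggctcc
Nars: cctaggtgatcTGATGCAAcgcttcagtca
Tars: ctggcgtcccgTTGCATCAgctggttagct
Yars: acgagctcagcTGATGCAAcctg

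Libraries held 8072840 to 24431979 counts. The lowest chi-square per degree of freedom between libraries of a block was 5.56, so no library looked like a repeat of another in its block. Libraries of different blocks were not compared in this way. Lens transcripts stood out in 6 libraries. Their 6 lens markers summed to 15700 to 137000 counts per 1000000 counts of the library (CPM), against 2.81 to 7750 CPM in the other 34, and they are called lens-bearing here by a limit of 10000 CPM. Of these 6 libraries 1 lay in block 2, 2 in block 3 and 3 in block 4. CPM is a share of all counts of a library, lens transcripts included, and each main result is therefore also given without these 6. In whole tissue, fewer cells of a type and less RNA per cell cannot be told apart.

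Atf4 (ENSRNOG00000017801), the factor at the head of the response, ranged over 428, 685 and 894 CPM as lowest, median and highest of 40 retinas. Its 4 lowest values, 428, 473, 481 and 496 CPM, were all in lens-bearing libraries of blocks 3 and 4. Over the 34 libraries under the lens limit its median was 718 CPM. Ddit3 (ENSRNOG00000006789), which encodes CHOP, ranged over 17.9, 37.4 and 51.8 CPM. In block 5 it had 34.5, 46.5, 49.6 and 48.5 CPM, and in block 4 it had 19.0, 17.9, 29.5 and 41.6 CPM, where the highest is the 1 library under the lens limit. Atf3 (ENSRNOG00000003745), an early stress-induced factor of the same family, ranged over 2.82, 6.31 and 20.8 CPM. All 4 libraries of block 5 (10.8, 10.4, 20.8 and 14.4 CPM) lay above all 4 of block 4 (2.82, 4.13, 3.73 and 3.5 CPM). Its lowest value rested on 59 counts, with a 95% Poisson interval of 2.15 to 3.64 CPM, and its highest on 290 counts, with an interval of 18.4 to 23.3 CPM.

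Among the effectors, Trib3 (ENSRNOG00000007319), a pseudokinase that damps ATF4 and AKT signalling, ranged over 3.27, 10.5 and 25.5 CPM. Its highest retina was in block 10 and its next, at 23.4 CPM, in block 5. Asns (ENSRNOG00000007546), which makes asparagine from aspartate and glutamine, ranged over 29.8, 64.0 and 140 CPM. It had 76.4, 50.9, 53.1 and 61.3 CPM in block 1, and 60.1, 51.4, 65.3 and 63.2 CPM in block 2. In block 3 it had 37.7, 36.4, 65.6 and 51.0 CPM, the first 2 of them lens-bearing, and in block 4 it had 29.8, 33.6, 45.9 and 55.2 CPM, the first 3 lens-bearing. Block 5 stood higher, from 82.3 to 140 CPM, with 127 CPM as its next highest. In block 6 a single library reached 135 CPM while the others had 75.4, 72.8 and 84.3 CPM. Block 9 ran from 41.0 to 75.8 CPM around a median of 68.6, and block 10 from 44.3 to 90.7 CPM around 58.5. In order of block medians (5, 6, 9, 2, 10, 1, 3 and 4), each block overlapped its neighbours in range.

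Chac1 (ENSRNOG00000014387), which degrades glutathione, ranged over 2.96, 7.96 and 20.4 CPM. Block 5 had 11.1, 13.4, 19.7 and 20.4 CPM, and block 4 had 2.96, 3.64, 6.08 and 6.58 CPM. The library of block 6 that was high for Asns was also its highest for Chac1, at 18.3 CPM, against 6.98 to 11.3 CPM in the other 3. Sesn2 (ENSRNOG00000042785), a leucine sensor that restrains the growth kinase complex mTORC1, ranged over 21.8, 48.0 and 84.4 CPM. It had 53.6, 59.2, 79.5 and 84.4 CPM in block 5 and 28.7, 21.8, 29.0 and 47.4 CPM in block 4. These 2 genes and Asns all had their highest value over the 40 retinas in 1 library of block 5.

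Among the serine and one-carbon enzymes, Psat1 and Shmt2 varied over a narrower range than any stress-response gene. Their highest level was 1.92 and 1.67 times their lowest, against 2.09 times for Atf4 and more for the others, while Phgdh had 3.57. Psat1 (ENSRNOG00000013971), the aminotransferase of serine synthesis, ranged over 39.3, 53.6 and 75.4 CPM. Shmt2 (ENSRNOG00000008106), the mitochondrial enzyme that splits serine into glycine and a one-carbon unit, ranged over 46.0, 63.2 and 77.0 CPM. Both were highest in the library of block 6 that stood out for Asns and Chac1. Phgdh (ENSRNOG00000019328), which commits carbon to serine synthesis, ranged over 14.3, 21.7 and 51.1 CPM. Its highest value was in a lens-bearing library of block 3, whose other libraries had 22.6, 22.1 and 17.4 CPM, and without lens-bearing libraries its highest was 38.5 CPM, in block 9.

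**Figure D1:**
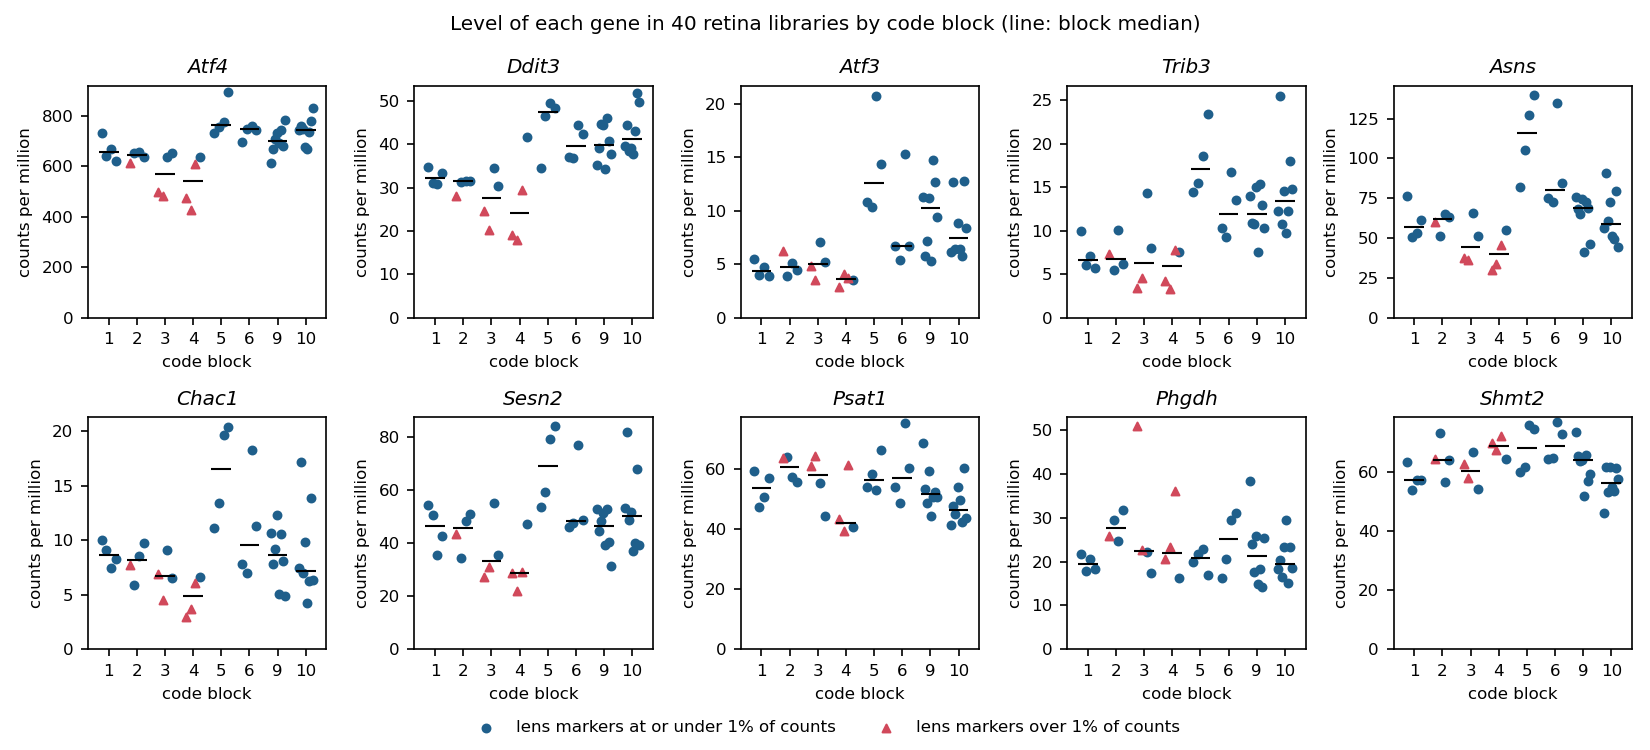
Level of each of the 10 genes in CPM (vertical axes, from 0) in the 40 retina libraries, grouped along the horizontal axis by code block; lines are block medians and triangles are the 6 lens-bearing libraries. Over all 40 libraries the 7 stress-response genes have their highest block median in block 5 and their lowest in block 4, an order that does not hold for all 7 without the lens-bearing libraries, while Psat1, Phgdh and Shmt2 do not share that order.

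Over all 40 libraries, scaled by total counts, each of the 7 stress-response genes had its highest block median in block 5 and its lowest in block 4. The ratio of the highest to the lowest block median was 1.41 for Atf4, 1.96 for Ddit3, 3.49 for Atf3, 2.89 for Trib3, 2.92 for Asns, 3.41 for Chac1 and 2.40 for Sesn2. The ratio was 1.44 for Psat1, 1.42 for Phgdh and 1.22 for Shmt2, whose highest and lowest blocks were other ones (2 and 4, 2 and 1, 6 and 10). A ratio of at least 1.5 was met by 6 of the 10 genes, and by 43.0% of all genes, so the count itself does not set the genes apart. Without the 6 lens-bearing libraries, which leaves 1 library in block 4 and 2 in block 3, block 5 was still the highest for these 7 genes but block 4 was no longer the lowest for all. The lowest block was then block 2 for Ddit3 (31.6 CPM, against 41.6 in block 4) and for Trib3 (6.15 against 7.55), and block 3 for Sesn2 (45.4 against 47.4). By TMM scaling (trimmed mean of M values) in place of total counts, Trib3 was lowest in block 1 (6.33, against 6.53 in block 4). Without lens-bearing libraries the ratio of the highest to the lowest block median, whichever blocks these were, was 1.2 for Atf4, 1.5 for Ddit3, 3.6 for Atf3, 2.77 for Trib3, 2.10 for Asns, 2.52 for Chac1 and 1.53 for Sesn2. That of Phgdh became 1.82, and 7 of the 10 genes then met the 1.5-fold limit, as did 41.4% of all genes. No test was made of blocks, since nothing says what a block stands for.

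The share of a gene's log2 variation that lay between blocks was 65.2% for Atf4, 61.2% for Ddit3, 65.0% for Atf3, 62.2% for Trib3, 62.2% for Asns, 46.2% for Chac1 and 47.4% for Sesn2. Over all genes the median share was 35.3%. Shmt2 had 43.8%, Psat1 34.3% and Phgdh 16.5%, and 89.8% of genes had a larger share than Phgdh. Most of the variation of Phgdh lay between retinas of the same block.

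Within blocks, the effectors moved together from retina to retina. Log2(CPM + 1) was centred on its block mean, and Spearman's rho was tested by permuting libraries within blocks. A pair was called when its p, adjusted over all genes by Benjamini-Hochberg, was under 0.05 from both sides. Of the 45 pairs 9 were called, all positive, and all were among the 7 stress-response genes. The strongest was Asns with Chac1 (rho = 0.91, Pearson r = 0.90, permutation p = 2e-05 for each, adjusted p = 0.014, n = 40). This p is the smallest the permutations can give. The value of rho stayed between 0.88 and 0.93 when any 1 library was left out, and was 0.91 with no centring. Leaving out the 2 libraries farthest from the median of Asns, or those farthest from that of Chac1, gave values that averaged 0.89. Inside blocks 9 and 10, with 8 libraries each, it was 0.88 in both (exact permutation p = 0.00724 in each). Each of these 2 blocks holds libraries from 2 separate ranges of the index number in the column names. Permutations within a block, exact ones included, crossed both ranges. No p given here or below for these blocks can therefore tell a difference between ranges from movement inside them. With all 40 libraries centred by block and index range, rho of Asns with Chac1 was 0.86.

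Asns also rose and fell with Sesn2 (rho = 0.87, r = 0.86, adjusted p = 0.025) and with Trib3 (rho = 0.84, r = 0.82, adjusted p = 0.016). Chac1 did so with Sesn2 (rho = 0.85, r = 0.85, adjusted p = 0.025) and with Trib3 (rho = 0.81, r = 0.76, adjusted p = 0.016). Each of these 4 pairs also had a permutation p of 2e-05 for rho and for r. Inside blocks 9 and 10, rho of Chac1 with Sesn2 was 0.88 and 0.95 (exact permutation p = 0.00724 and 0.00114). For Asns with Sesn2 it was 0.81 and 0.86 (exact p = 0.0218 and 0.0107), for Trib3 with Chac1 0.83 and 0.81 (exact p = 0.0154 and 0.0218), and for Trib3 with Asns 0.90 and 0.52 (exact p = 0.00456 and 0.197). These 5 pairs remained called without the 6 lens-bearing libraries, at rho of 0.92 for Asns with Chac1, 0.91 for Chac1 with Sesn2, 0.87 for Asns with Sesn2, 0.83 for Trib3 with Chac1 and 0.81 for Trib3 with Asns.

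The other 4 called pairs joined Ddit3 with Atf4 (rho = 0.80, r = 0.81, adjusted p = 0.011), with Trib3 (rho = 0.76, r = 0.68, adjusted p = 0.016) and with Chac1 (rho = 0.66, r = 0.61, adjusted p = 0.047), and Trib3 with Sesn2 (rho = 0.75, r = 0.78, adjusted p = 0.025). None of these 4 was called without the 6 lens-bearing libraries, where rho was 0.57 for Atf4 with Ddit3, 0.67 for Ddit3 with Trib3, 0.61 for Ddit3 with Chac1 and 0.74 for Trib3 with Sesn2. Atf4 with Ddit3 moved most, and scaling libraries by TMM instead of by total counts gave 0.50. Inside blocks 9 and 10 that pair had rho of 0.43 and 0.81 (exact permutation p = 0.299 and 0.0218).

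The Atf4 transcript had lower rho with the effectors than they had with one another. Its rho was 0.45 with Asns (unadjusted permutation p = 0.015), 0.44 with Chac1 (p = 0.012) and 0.43 with Sesn2 (p = 0.016). With Trib3 it was 0.67 (permutation p = 0.00046). None was called, and without lens-bearing libraries the 4 values were 0.21, 0.27, 0.24 and 0.43. Counts measure Atf4 transcript, whereas the response is known to act on its translation. Whether translation has a part in these values was not tested. Atf3 had rho of 0.72 with Chac1 (p = 4e-05), 0.69 with Asns (p = 8e-05) and 0.69 with Trib3 (p = 2e-05). These were adjusted to 0.11, 0.11 and 0.099 from the side of Atf3 and so were not called, and they were 0.75, 0.74 and 0.78 without lens-bearing libraries.

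**Figure D2:**
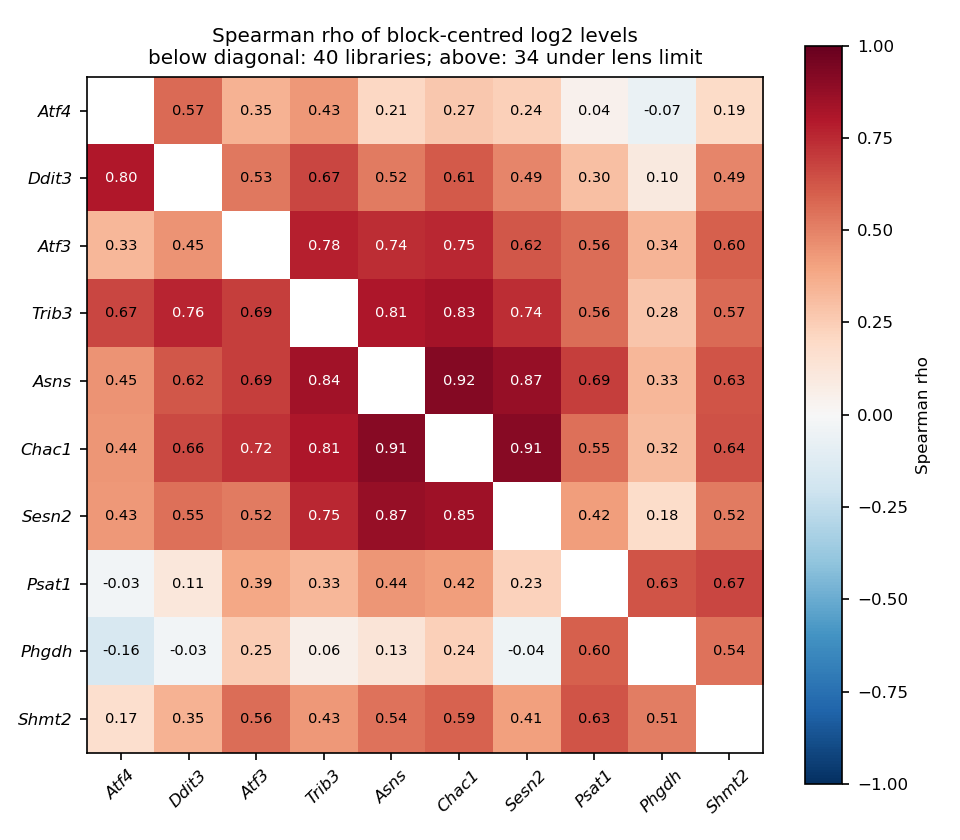
Spearman's rho of block-centred log2(CPM + 1) for the 45 pairs of the 10 genes, with all 40 libraries below the diagonal and the 34 under the lens limit above it; colour runs from blue at -1 to red at 1. Asns, Chac1, Sesn2 and Trib3 form the reddest square on both sides of the diagonal, and Atf4 is paler above it than below with Ddit3 and these 4 genes.

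The 3 serine and one-carbon genes moved together more loosely. Their rho was 0.63 for Psat1 with Shmt2 (r = 0.64, permutation p = 0.00012 and 4e-05), 0.60 for Psat1 with Phgdh (r = 0.64, p = 0.00040 and 0.00030) and 0.51 for Phgdh with Shmt2 (r = 0.53, p = 0.0023 and 0.00068). Adjusted over all genes, 0 of these 3 pairs were called from both sides, although all 3 had an unadjusted p under 0.05, and 0 were called by Pearson's r. They were 0.67, 0.63 and 0.54 without lens-bearing libraries. Inside blocks 9 and 10, Psat1 and Phgdh had rho of 0.67 and 0.81 (exact permutation p = 0.0831 and 0.0218).

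Between these 3 genes and the 7 stress-response genes rho ran from -0.16 to 0.59, and 0 of 21 pairs were called, with 9 at an unadjusted p under 0.05 and 0 called by Pearson's r. Phgdh stood farthest from the effectors. Its rho was 0.13 with Asns (r = 0.11, permutation p = 0.50 and 0.59), 0.06 with Trib3, -0.04 with Sesn2 and 0.24 with Chac1. Shmt2 stood closer, at 0.59 with Chac1 (unadjusted permutation p = 0.00048), 0.54 with Asns (p = 0.0012) and 0.56 with Atf3 (p = 0.0011). Psat1 lay between them, at 0.44 with Asns (permutation p = 0.014) and 0.42 with Chac1 (p = 0.020). Without lens-bearing libraries rho with Asns was 0.69 for Psat1, 0.63 for Shmt2 and 0.33 for Phgdh, so Psat1 no longer lay between the others. With Chac1 it was then 0.55 for Psat1, 0.64 for Shmt2 and 0.32 for Phgdh. The 21 pairs between the sets then ran from -0.07 to 0.69, with a median of 0.42 against 0.25 over all 40 libraries. Whether the pairs within a set differ from those between sets was not tested.

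**Figure D3:**
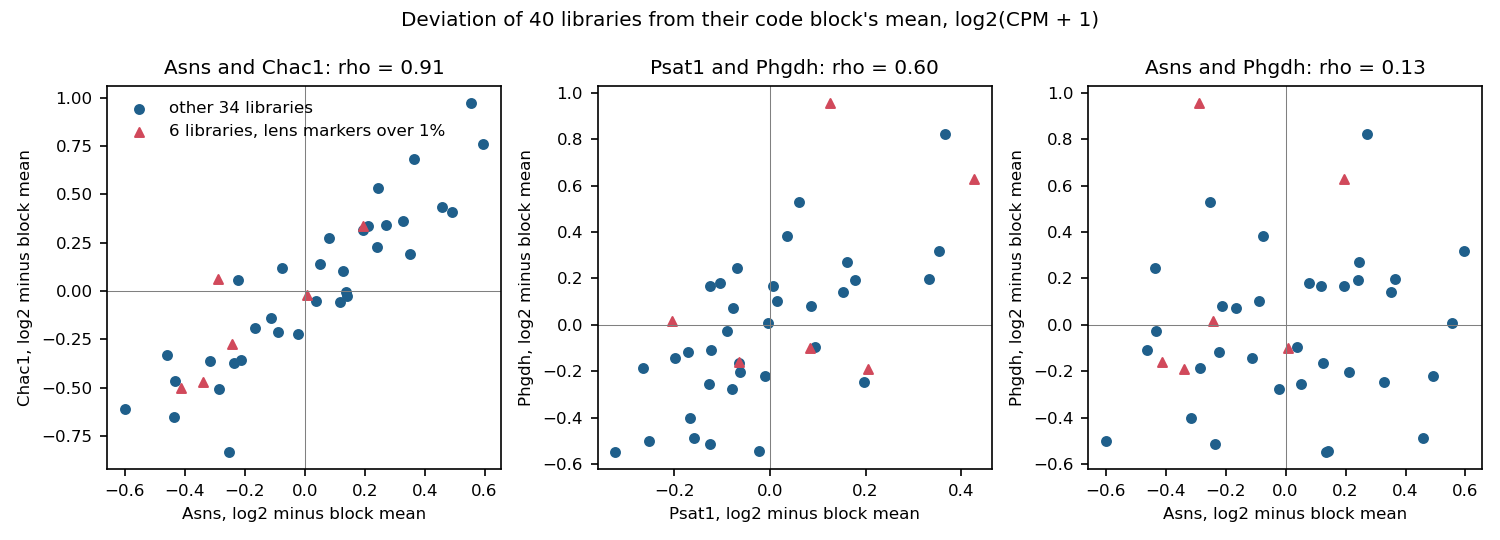
Deviation of each of the 40 libraries from its block mean on the log2(CPM + 1) scale, for Asns against Chac1, Psat1 against Phgdh and Asns against Phgdh; triangles are the 6 lens-bearing libraries. The points follow a line for Asns and Chac1 (rho = 0.91), a looser one for Psat1 and Phgdh (rho = 0.60), and none for Asns and Phgdh (rho = 0.13).

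For each member the 3 most similar genes outside the set were taken by rho over all 40 libraries. For the effectors these were nearly all genes of protein synthesis and folate metabolism. Asns was closest to Mars, Yars and Aars, the methionyl-, tyrosyl- and alanyl-tRNA synthetases (rho = 0.93, 0.90 and 0.89, adjusted permutation p = 0.012 for each). Chac1 was closest to Tars, the threonyl-tRNA synthetase, and to Mars and Yars (rho = 0.88, 0.86 and 0.86, adjusted p = 0.014). Sesn2 was closest to Mars, to Mthfd2, a mitochondrial folate enzyme, and to Aars (rho = 0.84, 0.83 and 0.82, adjusted p = 0.025). Trib3 was closest to Herpud1, which serves degradation of proteins from the endoplasmic reticulum, and to Aars and Mars (rho = 0.85, 0.82 and 0.81, adjusted p = 0.016). Without lens-bearing libraries these 12 values lay between 0.74 and 0.92.

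Shmt2 was closest to Slc1a4, a carrier of serine and alanine (rho = 0.85), then to Klhl14 and to Slc7a5, the large neutral amino acid carrier (0.74 each), all at an adjusted p of 0.099. Atf3 was closest to Herpud1 (0.75) and Mthfd2 (0.74), also named above for Trib3 and Sesn2, and to Slc1a4 (0.74), at adjusted p of 0.099, 0.11 and 0.099. Psat1 was closest to Atf5, a transcription factor (0.64), Nudt1 (0.63) and Etfa (0.62), at an adjusted p of 0.46. Phgdh was closest to Gstm1, a glutathione transferase (0.79), Rasl12 (0.79) and Metrnl, a secreted protein (0.78), at an adjusted p of 0.0041. Ddit3 had Lrrc4c (0.86), Rtn4rl1 (0.85) and Elavl2 (0.84), genes of neurons, at an adjusted p of 0.011, and Atf4 had Sec14l2 (0.85), Arhgap24 (0.85) and Rtn4rl1 (0.84), at an adjusted p of 0.0037. Without lens-bearing libraries rho was 0.70, 0.71 and 0.70 for Ddit3, which then had 0 called genes, and 0.70, 0.73 and 0.78 for Atf4. For the others it was 0.79 to 0.89 for Shmt2, 0.78 to 0.82 for Atf3, 0.72 to 0.76 for Psat1 and 0.74 to 0.77 for Phgdh.

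How many genes each member drew in differed widely. At an adjusted p under 0.05 and with positive rho, Atf4 had 2457 of 14913 genes (16.5%), Ddit3 1939 (13.0%) and Phgdh 1034 (6.93%). Asns had 54 genes (0.362%), Chac1 51 (0.342%), Trib3 28 (0.188%) and Sesn2 18 (0.121%). Atf3, Psat1 and Shmt2 had 0 genes each (0.0%), and TMM scaling gave them 0, 0 and 70. At an unadjusted p under 0.05 they had 595 (3.99%), 1168 (7.83%) and 1454 genes (9.75%). Without lens-bearing libraries Atf4 had 51 genes, Ddit3 0, Phgdh 342, Asns 18, Chac1 18, Sesn2 12 and Trib3 8, and the median rho over all genes was -0.02 for Atf4, against 0.27 with all 40 libraries. TMM scaling of all 40 libraries left Atf4 with 39 genes and Ddit3 with 0. Against this background, Asns was called by itself with 4 of the other 9 members, Chac1 and Trib3 with 5 each and Sesn2 with 3. Ddit3 was called with 6, Atf4 and Phgdh with 2 each, and Atf3, Psat1 and Shmt2 with 0.

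Genes called with at least 5 members at once made up 0.114% of all genes, or 17 genes, and 13 of them were genes of the pathway lists. They were 8 synthetases (Aars, Cars, Eprs, Gars, Mars, Nars, Tars and Yars), 3 amino acid carriers (Slc7a5, Slc7a1 and Slc1a4), Herpud1 and Mthfd2. No gene of the lists met this rule without lens-bearing libraries.

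The tRNA synthetases had the highest median rho with Asns of the 7 pathway lists. With Asns, 11 of the 20 synthetases were called, and with Chac1 also 11, with Sesn2 9 and with Trib3 8. Without lens-bearing libraries the counts were 10, 10, 8 and 1. The list's median rho with Asns was 0.73, against 0.21 over all genes, and 0.72 against 0.01 without lens-bearing libraries. With Phgdh its median was 0.05, with 0 called and 0 at an unadjusted p under 0.05. With Atf4 9 synthetases were called, and 0 without lens-bearing libraries, where their median rho with Atf4 was 0.29.

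Other branches of the response followed Asns less than the synthetases did. Over all genes 0.362% were called with Asns at positive rho, and the median rho was 0.21. Of 12 tested amino acid carriers 4 were called (Slc7a1 at 0.87, Slc1a4 at 0.72, Slc38a2 at 0.71 and Slc7a5 at 0.70), and the list's median rho was 0.42. Without lens-bearing libraries 1 was called. Of 23 further targets of ATF4 and CHOP 3 were called, Cebpg, a partner of ATF4 (0.83), Herpud1 (0.79) and Atf5 (0.72), with a list median of 0.31, and 3 were called without lens-bearing libraries. Of 21 tested serine, glycine and folate enzymes 1 was called, Mthfd2 (0.85, and 0.91 without lens-bearing libraries), with a list median of 0.24. Slc38a2, Cebpg and Atf5 were named after their values were seen. Of the 19 genes of the XBP1 and ATF6 branches of the unfolded protein response 0 were called (2 at an unadjusted p under 0.05, and 0 by TMM scaling), with a median of 0.20. The 8 tested genes of the mitochondrial stress route gave 0 (1 at an unadjusted p under 0.05, and 0 by TMM scaling), with a median of 0.23. Of 16 genes of eIF2, its kinases, its exchange factor eIF2B and its phosphatases, 0 were called with positive rho and 1 with negative rho. The median of that list was 0.19, with 4 genes at an unadjusted p under 0.05 and 0 called by TMM scaling.

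**Figure D4:**
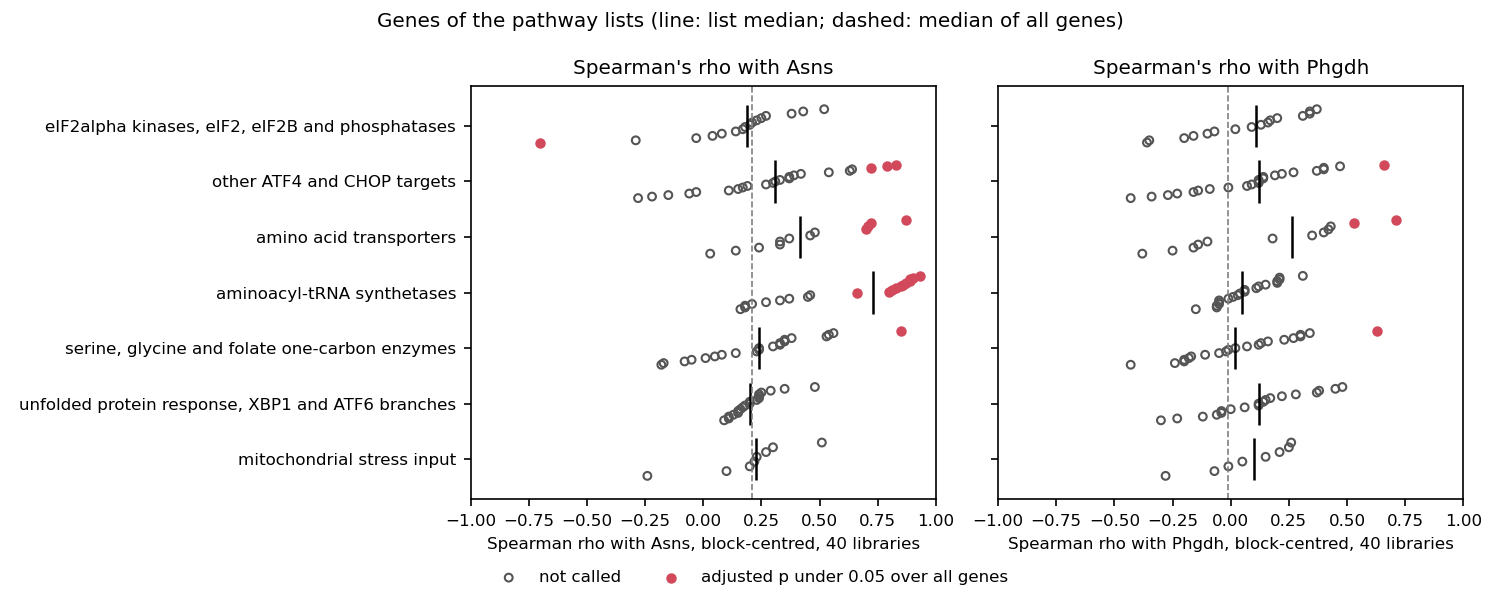
Spearman's rho of each gene of 7 pathway lists with Asns (left) and with Phgdh (right) over 40 libraries, block-centred; filled points passed an adjusted p of 0.05 over all genes, solid lines are list medians and the dashed line is the median of all genes. The synthetase list has the highest median on the left (0.73, against 0.21 for all genes) and a median near 0 on the right (0.05).

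The synthetases are split here by whether they were called with Asns, so their rho with Asns differs by that choice. The 11 called ones (Aars, Cars, Eprs, Gars, Iars, Lars, Mars, Nars, Sars, Tars and Yars) had rho with Asns of 0.66 to 0.93, and the other 9 (Dars, Farsa, Farsb, Hars, Kars, Qars, Rars, Vars and Wars) had 0.16 to 0.46. With TMM scaling 8 were called. The 9 were named after their values were seen. A promoter window was searched for 9 of the 11 and 7 of the 9. The core TGATGCAA stood in 6 windows of the called synthetases, printed above, and in 0 windows of the others, against 0.573% of detected genes. Over all genes called with Asns, 44 of 54 had a window that was searched, and 9 of these (20.5%) held the core. These were the 6 synthetases, Chac1, Herpud1 and Slc1a4. The core stood in 8 of 40 windows of genes called with Chac1, in 8 of 21 (38.1%) for Trib3 and in 8 of 16 for Sesn2. These gene sets overlap, since the members tracked one another. The core also stood in genes with little relation to Asns, among them Eif2s2, Jdp2 and Fgf21 at rho of 0.08, -0.03 and 0.19. Of the effectors, Asns and Sesn2 had no match of either form in the window searched, which says nothing of sites outside it.

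**Figure D5:**
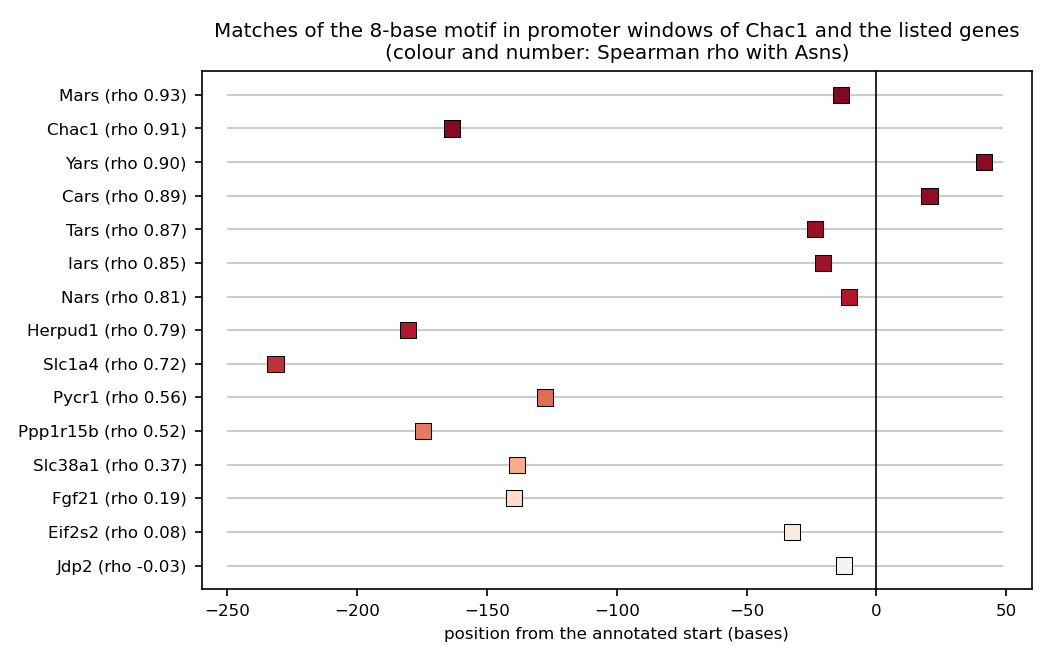
Position of each match of the 8-base core in the promoter windows of Chac1 and of the pathway genes (horizontal axis, bases from the annotated start at 0, windows from 250 before it to 50 after it), ordered and coloured by Spearman's rho with Asns. Among genes with high rho, the 6 synthetases carry the core from 27 bases before the start in Tars to 38 after it in Yars. Chac1, Herpud1 and Slc1a4 carry it 167, 184 and 235 bases before the start, and genes with rho near 0 also carry it.

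Some further genes of the pathway were picked after their values were seen. Ppp1r15a encodes GADD34, which reverses the phosphorylation of eIF2 and is itself known as a target of the response. It ran opposite to the effectors, at 21.1 to 36.8 CPM over 40 retinas, with rho of -0.72 with Trib3 and -0.70 with Asns (permutation p = 6e-05 each, adjusted p = 0.033 and 0.028). Without lens-bearing libraries rho was -0.60 and -0.61, and with TMM scaling -0.62 and -0.51, none of them called. With Chac1 and Sesn2 its rho over all 40 libraries was -0.63 and -0.61 (adjusted permutation p = 0.059 and 0.15), neither of them called. Ppp1r15a had rho of -0.06 with the summed early response genes such as Fos and Egr1. Psph, the last enzyme of serine synthesis, had rho of -0.02 with Phgdh and 0.29 with Psat1, against 0.53 with Asns (unadjusted p = 0.0017, adjusted p = 0.11) and 0.63 with Ddit3 (adjusted p = 0.021). Without lens-bearing libraries Psph had 0.45 with Psat1 and 0.42 with Asns, so that it was no closer to Asns. With TMM scaling it had 0.18 with Psat1 and 0.31 with Asns. The call with Ddit3 was lost without lens-bearing libraries (rho = 0.46, adjusted permutation p = 0.20) and with TMM scaling (rho = 0.47, adjusted p = 0.20). Mthfd2 followed Asns at 0.85 and Phgdh at 0.02.

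The carrier subunits Slc7a5 and Slc3a2 pair in 1 transporter, and whether they differ was not tested. Slc7a5 had rho of 0.70 with Asns (adjusted permutation p = 0.012) and 0.40 with Phgdh (adjusted p = 0.14). Slc3a2 had 0.24 with Asns (adjusted p = 0.41) and 0.71 with Phgdh (adjusted p = 0.0067). Without lens-bearing libraries Slc3a2 kept 0.19 and 0.75, while Slc7a5 had 0.65 with Asns, no longer called (adjusted p = 0.18), and 0.63 with Phgdh, called at an adjusted p of 0.038. With TMM scaling Slc7a5 had 0.47 with Asns (adjusted permutation p = 0.68) and 0.50 with Phgdh (adjusted p = 0.040), so that it too was called with Phgdh and not with Asns. Of the listed genes, 2 of 12 carriers, 1 of 23 further targets and 1 of 21 serine, glycine and folate enzymes were called with Phgdh, against 6.93% of all genes. In the other 4 lists, of 16, 20, 19 and 8 tested genes, 0 were called (1, 0, 4 and 0 at an unadjusted p under 0.05, and 0, 0, 3 and 0 by TMM scaling). Beside Slc3a2 the called genes were Slc1a4 (0.53), Mthfd1l, a mitochondrial folate enzyme (0.63), and Eif4ebp1, a brake on translation (0.66).

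Retinal identity was measured by markers. Rod markers summed to 15600 to 44900 CPM and Müller glia markers to 3850 to 7980 CPM, with none of the listed genes of either at 0 throughout. The rho of Phgdh was 0.58 with the summed pigment epithelium markers, 0.55 with lens, 0.47 with red blood cells, 0.47 with astrocyte and gliosis markers and 0.37 with Müller glia, and without lens-bearing libraries these were 0.59, 0.56, 0.56, 0.33 and 0.42. Called with it were 3 of 7 pigment epithelium markers, 4 of 6 lens markers, 2 of 5 tested red blood cell markers, 2 of 4 astrocyte and gliosis markers and 3 of 9 Müller glia markers, against 6.93% of all genes. Without lens-bearing libraries these counts were 0, 1, 0, 0 and 1, against 2.29% of all genes. The Müller glia markers did not move as a set: Apoe, Vim and Clu were called at 0.53, 0.65 and 0.74, Slc1a3 had -0.31, Abca8a -0.19 and Glul -0.14, and the median of the 9 was -0.02. Summed pigment epithelium markers spanned 85.6 to 2110 CPM and were highest in the library with the highest Phgdh. Asns had rho of -0.02 with pigment epithelium, -0.11 with lens and -0.05 with red blood cells, and 0.34 with Müller glia. Its rho was 0.45 with bipolar cells, 0.37 with cones and with microglia, 0.35 with rods and 0.33 with amacrine and horizontal cells. Without lens-bearing libraries Asns had 0.17 with Müller glia, 0.22 with microglia, 0.13 with bipolar cells, 0.10 with cones and 0.08 with rods. With amacrine and horizontal cells it then had -0.01. Atf4 had 0.65 with rods and -0.61 with lens, and 0.39 and -0.34 without lens-bearing libraries. Early response genes, which can mark handling of tissue, had rho of -0.15 with Asns and -0.48 without lens-bearing libraries. Neither the part of these tissues nor that of handling in the results was tested.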

How the data were processed

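Single whole retinas gave the RNA, and the libraries were stranded mRNA ones (per the labels). HISAT2, edgeR and the rat build Rnor_6.0 are named in the submitters' processing notes. Raw counts per gene in 40 columns were deposited by the authors as a single table. None of the columns matched a single sample by name, so all 40 were used as libraries of whole retina, and the planned edgeR tests of anemia and OIR were not run.

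Counts were divided by column totals to give counts per 1000000 (CPM). Genes with a mean count of at least 10 were kept. Log2(CPM + 1) was centred on the mean of each code block, and Spearman's rho was tested with 100000 permutations within blocks, two-sided, with Benjamini-Hochberg adjustment over all genes for each member. Threshold was an adjusted p of 0.05. Code that computes this was tested on simulated data. edgeR 4.0.16 and DESeq2 1.42.0 gave alternative scaling factors only. Other tools were R 4.3.3, Python 3.11.15, numpy 2.4.6, scipy 1.17.1 and pandas 2.3.3.

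Named were all 10 members, the 3 genes most similar to each, and listed genes called with at least 5 members. Other named genes are marked as such. Members and lists were chosen with earlier results of these data known. P-values measure only the spread between these libraries, and whether any shared a pup is not given in the sources used here. Poisson intervals cover counting error only. Levels are not compared between genes, because CPM is not adjusted for length. Promoter windows are RefSeq's for GRCr8, matched by symbol or by a synonym of 1 gene; 1 window is not reported here and was left out of every count.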

Additional observations from a re-analysis of the deposited data

Results flagged for a closer look

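In each code block and for each gene, the highest and lowest library were set against the rest of the block, 80 sets in all. A library stood apart in 4 of them by Dixon's 95% critical value, a limit that chance passes in about 1 set in 20, which would be the same number. A library of block 6 had 15.3 CPM of Atf3, against 5.40 to 6.73 CPM in the other 3, and 77.2 CPM of Sesn2, against 46.0 to 48.9 CPM. Its pigment epithelium markers summed to 869 CPM. A library of block 3 had 51.1 CPM of Phgdh, against 17.4 to 22.6 CPM, and it is lens-bearing, with pigment epithelium markers at 2110 CPM. A library of block 2, also lens-bearing, had 28.1 CPM of Ddit3, against 31.3 to 31.6 CPM. The part of these tissues in the values was not tested.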

How the results depend on the processing

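The count of called pairs, 9 of 45, became 5 with TMM scaling, 5 with DESeq2 size factors and 5 without the 6 lens-bearing libraries, an alternative chosen after the data were seen. It became 21 without centring, which adds the differences between blocks, and 14 when libraries were centred by block and range of index numbers, chosen after the column names were seen. The cause of the last was not tested. Leaving out each code block in turn gave 6 to 10. No filter gave 8, a pseudocount of 0.5 gave 9, adding depth as a term gave 12, Pearson's r gave 9 and leaving out the 2 farthest libraries gave 7. No pair changed sign with a call in any of these settings. The number of genes past 1.5-fold between block medians stayed at 6 or 7 in every setting run. Synthetases called with Asns numbered 11, and 8 with TMM scaling; with Chac1 they numbered 11, and 5 with TMM scaling. No paired analysis was possible because the count columns carry no replicate number or group. Depth limits Atf3 and Chac1 most among the members, whose lowest counts were 47 and 62 per library.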
